A study of Drosophila melanogaster with 24 samples.

Results

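This account covers 5 RNA-seq libraries of Drosophila melanogaster, 3 with a knockdown of Zn72d and 2 with a very high level of Adar messenger RNA, out of 24 libraries in the series. The knockdown libraries were taken by their titles. The other pair was chosen from the E374A experiment by measured values, as the libraries whose Adar level exceeded 500 TPM (the transcript abundance unit, a level scaled for gene length and depth). The labels give the knockdown group as kd Zn72D, and the study's design text speaks of RNA interference for it and of midgut-specific overexpression of ADAR(E374A). Neither driver, age, sex nor genetic background is given in the labels of these 5 libraries, and no allele or agent shared by both groups is named. The titles of both high-Adar libraries mark them as WT, the control of the E374A experiment, while the libraries titled as overexpression samples had Adar between 14.5 and 17.2 TPM. The names under which the tables of both libraries were deposited run the other way and mark them as overexpression, so their labels disagree and which is right was not settled. They are called the libraries labelled E374A control throughout, after their titles, and every value of theirs below is subject to that disagreement. Nothing in the labels says that replicates came from separate flies, and the tests below therefore compare these libraries and may reflect technical spread alone.

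ADAR is the enzyme that converts adenosine to inosine in double-stranded RNA, and flies have a single Adar gene, best known for recoding messenger RNAs in neurons. The E374A form carries a change in the catalytic centre that removes deaminase activity, so that the protein can bind RNA without editing it. Zn72D is a zinc-finger RNA-binding protein that regulates editing at many sites in the fly brain and is also needed for splicing of maleless (mle) messenger RNA in dosage compensation. In the intestine, RNA duplexes are of interest because unedited duplexes can be sensed as foreign, with the STING pathway among the fly's antiviral responses.

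The tissue of these libraries is labelled whole organism, whereas the protocol text describes sorted stem cells of the midgut. Transcripts of digestive serine proteases summed to between 148970 and 229710 TPM. The female germ-line list (6 genes) summed to 0.206 to 0.643 TPM and the male list (7 genes) to 0 to 0.500 TPM, and the photoreceptor opsin ninaE was between 0.0318 and 0.789 TPM in the 5 libraries. Of the 8 genes of the photoreceptor and head list, 5 were under 1 TPM in all 5 libraries. The list sum was nevertheless 130 to 178 TPM in the knockdown, and 5.06 and 9.44 TPM in the other group, because it holds takeout (to), described below. The progenitor marker esg was at 9.05 to 20.6 TPM, against a deposited value of 323 in the library labelled E374A control 3, which fell outside the Adar limit with 31.5 for Adar. The table of that library has another format, in which annotated genes sum to 987040 and assembled loci are listed besides; its values were used as deposited, were not rescaled, and are set across tables. Thus germ-line transcripts and ninaE were near 0, and gut protease transcripts were abundant. Between 8111 and 8677 genes exceeded 1 TPM, and estimated aligned sequence was 5.69 to 7.62 gigabases per library; reads per gene are unknown. The rank correlation of gene levels was 0.965 to 0.979 within groups and 0.919 to 0.958 between groups, as a description over 8710 genes.

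Some libraries stood apart before any comparison. The library labelled E374A control 2 held 62.2 TPM of AttC, an antimicrobial peptide gene, against at most 0.067 TPM in the other 4 libraries. The same library held 495 TPM of the yolk protein gene Yp3, against 15.3 to 73.2 TPM in the others, and its 26 antimicrobial peptide genes summed to 149.6 TPM against 13.2 to 16.9 TPM. The protease gene Jon65Aii was listed at 0 there and ranged from 466 to 622 TPM in the others. Among the knockdown libraries, replicate 3 held much less heat-shock transcript than replicates 1 and 2. The 3 labelled Zn72d controls are quoted below for reference only. They entered no test of the main comparison, because they share 83.6 to 84.0% of equal gene coverages (within 0.1%) with the labelled overexpression libraries, against at most 0.356% for any pair of the 5 libraries described.

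Adar, which chose the pair, was at 6.10, 9.74 and 13.3 TPM in the 3 knockdown libraries and at 879 and 801 TPM in the libraries labelled E374A control. The members just inside the limit were thus at 801 and 879 TPM. Adar was 14.0 to 19.1 TPM in the Zn72d controls. Its difference carries no test. Adar lies at X:1773725-1788065 (dm6) and Zn72D at 3L:16106594-16112626.

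Zn72D, the knockdown's target, was at 10.6, 17.9 and 16 TPM in the knockdown libraries and at 20.9 and 32.8 TPM in the libraries labelled E374A control. All 3 knockdown values lay below both others, as they did in 25.3% of all tested genes. The values in the Zn72d controls were 18.6, 18.1 and 16.9 TPM, within or close to the knockdown range. The log2 fold change of the knockdown over the labelled E374A control was -0.81 ± 0.35 (SE), with an adjusted p of 0.419 in limma. The exact two-sided permutation test gave p = 0.2, the smallest that its 10 arrangements allow. In the list of 15 editing and Zn72D partner genes, 13 were tested besides Adar and 0 of these were called; of all tested genes, 2.05% were called in either direction. The median log2 fold change of this list, Adar included, was -0.57, against -0.31 over all tested genes. The helicase gene mle was at 5.43, 7.06 and 9.57 TPM against 9.28 and 19.1 TPM, with overlapping groups and an adjusted p of 0.464. The dosage compensation list had 0 calls among 9 tested genes and a median of -0.39.

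**Figure D1:**
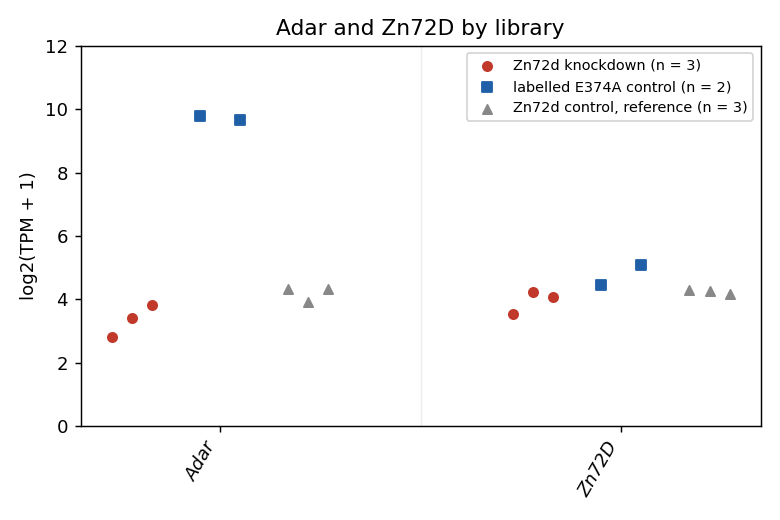
Levels of Adar and Zn72D on the log2(TPM + 1) scale, 1 point per library, for 3 Zn72d knockdown, 2 labelled E374A control and 3 Zn72d control libraries. Adar reaches 801 and 879 TPM in the labelled E374A control and stays at or below 19.1 TPM elsewhere, whereas Zn72D spans 10.6 to 32.8 TPM over all points.

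Across the transcriptome, 175 of 8529 tested genes passed an adjusted p of 0.05, which is 2.05% of those tested. Of these, 118 genes were higher in the knockdown libraries (1.38%) and 57 lower (0.668%), or 56 lower without Adar, which chose the libraries. A total of 962 genes had an unadjusted p under 0.05. The median log2 fold change of all tested genes was -0.31, so that most genes sat slightly lower in the knockdown libraries. This median depended on the library: it was -0.53 without labelled E374A control 1 and -0.08 without control 2. With a knockdown library left out it was -0.41 to -0.20. Scaling by the median ratio of libraries moved this median to -0.00. That scaling gave 221 higher and 59 lower calls (3.28% of tested genes), a share of 78.9% higher against 67.4% in the main comparison. Without the library labelled E374A control 1 there were 154 higher and 294 lower calls, and without control 2 there were 97 and 29. Leaving out knockdown 1 gave 197 and 80 calls, leaving out knockdown 2 gave 87 and 46, and leaving out knockdown 3 gave 208 and 181. In all 5 of these fits, 98 of the 175 genes were called, 74 higher and 24 lower. In 2765 tested genes (32.4%) the groups did not overlap, 2157 of them with the knockdown libraries below (25.3%) and 608 above (7.13%). All 175 called genes were among these 2765, so that non-overlap of a called gene below is no added support. Of the higher genes, 63 had a mean under 1 TPM in the libraries labelled E374A control, and of the lower genes 21 had a mean under 1 TPM in the knockdown. Calls were spread over the large chromosome arms, between 1.69% and 2.35% of the genes of each, while chromosome 4 had 0 calls among 67 tested genes. By annotation class, 7 of 58 tested pseudogenes were called higher (12.07%, against 1.38% of all tested genes) and 0 lower. The 7 included rows of ribosomal RNA pseudogenes, whose means were higher still in the Zn72d controls quoted for reference. Whether carry-over of ribosomal RNA differed between libraries was not tested.

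**Figure D2:**
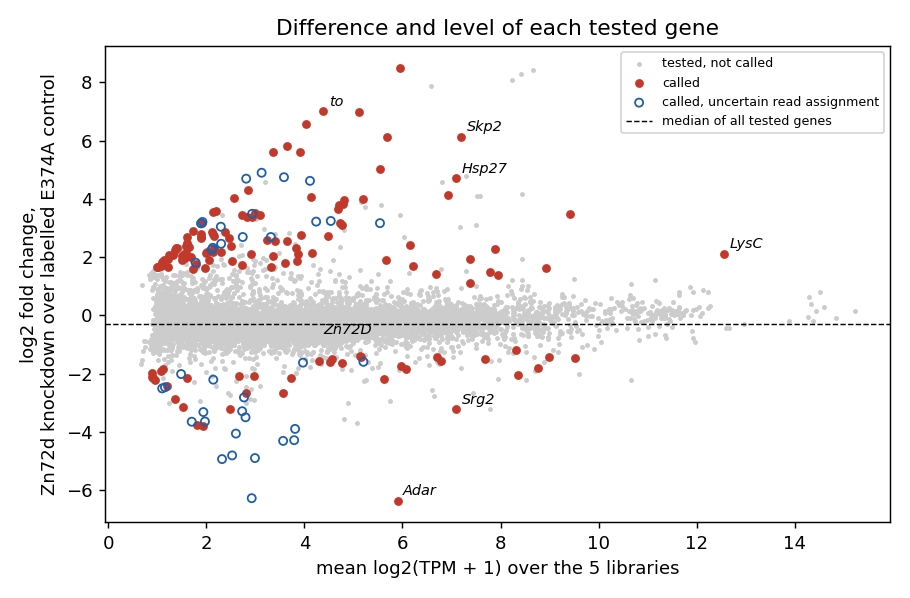
Log2 fold change of each of 8529 tested genes (Zn72d knockdown over labelled E374A control) against its mean log2(TPM + 1) over the 5 libraries. Called genes are red, called genes with uncertain read assignment are open blue circles, and the dashed line marks the median of all tested genes at -0.31.

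The higher calls were led by genes that were nearly absent from the libraries labelled E374A control. The largest change was that of CG43673, a gene without a descriptive name that was added after its values were seen, at 616, 699.6 and 647 TPM in the knockdown libraries and at 0.130 and 1.89 TPM in the other group (log2 fold change 8.50 ± 0.37, adjusted p = 5.91e-07). Takeout (to), a secreted carrier protein linked to feeding and the circadian clock, was at 127, 140 and 172 TPM in the knockdown libraries and at 0 and 0.294 TPM in the other group. Jhbp1, named as a juvenile hormone-binding protein, was at 96.9, 85.6 and 121 TPM against 0 and 0.120 TPM. Jhbp13, of the same naming family, was at 14.5, 8.48 and 12.1 TPM against 0 and 0.0527 TPM. The log2 fold changes of these 3 genes were 7.01, 6.58 and 3.60, with adjusted p of 5.91e-07, 9.76e-07 and 1.78e-04, and none of their values overlapped between groups. The Zn72d controls were at 434 to 805 TPM for CG43673, 141 to 187 TPM for to, 62.2 to 98.9 TPM for Jhbp1 and 8.72 to 13.2 TPM for Jhbp13, so that the libraries labelled E374A control were the low ones among the 3 groups.

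Other members of this group were abundant in the knockdown libraries. The F-box protein gene Skp2, which directs proteins to ubiquitin ligation, was at 750, 726 and 948 TPM against 6.02 and 17.7 TPM (log2 fold change 6.13 ± 0.38). Skp2 overlaps CG14645 on the opposite strand, which was also called higher, at 32.5, 27.6 and 121 TPM against 0 and 0 TPM. CG14645 was at 174, 189 and 1471 TPM in the Zn72d controls. The strand settings are unknown, and how reads were divided between Skp2 and CG14645 was not tested. Pgant4, an enzyme that starts O-linked glycosylation of mucins, was at 49.9, 81.5 and 83.8 TPM against 0.0874 and 0.927 TPM. EbpIII, named for a protein of the ejaculatory bulb, was at 329, 370 and 470 TPM against 28.9 and 14.9 TPM. These 3 genes had signal in every knockdown library and, like all called genes, had no value in common between groups. Waterproof (wat), a fatty acyl-CoA reductase, was at 54.0, 85.8 and 87.8 TPM against 3.61 and 5.28 TPM. ADPS, of ether lipid synthesis, was at 11.3, 19.6 and 22.5 TPM against 1.19 and 0.362 TPM. Both were called in every fit that left out 1 library. Mco4, a multicopper oxidase, was at 39.8, 64.4 and 58.7 TPM against 0.414 and 6.40 TPM, and its adjusted p of 0.0181 became 0.228 without knockdown replicate 1. A pair of genes without a descriptive name, singled out after their values were seen, were higher still in level. CG14125 was called, at 1258, 2160 and 2124 TPM against 87.9 and 287 TPM (adjusted p = 0.0237, which became 0.362 without knockdown 1 and 0.0833 without knockdown 2). CG34220 was at 1983, 5922 and 6256 TPM against 2.9 and 38.1 TPM and did not pass (adjusted p = 0.123), with the labelled E374A control libraries far apart on the log scale. The Zn72d controls stood at 556 to 770 TPM for Skp2, 62.2 to 91.4 TPM for Pgant4 and 408 to 548 TPM for EbpIII, beside the knockdown values above.

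The gut mucin and peritrophic matrix list, which covers the chitin-rich lining of the gut and its remodelling enzymes, had 4 of 19 tested members called higher (1.38% of all tested genes were) and 1 lower (0.668% of all), with a median log2 fold change of 0.66. Of its 41 genes, 20 were under 1 TPM in all 5 libraries. Cht8, a chitinase-like gene, was at 256, 280 and 313 TPM against 1.72 and 5.01 TPM, with a log2 fold change of 6.13 ± 0.35 and an adjusted p of 2.18e-06. Muc68D, a mucin gene, was at 412, 1078 and 1386 TPM against 0.292 and 9.07 TPM, yet its adjusted p was 0.0771. For either gene the knockdown libraries all lay above the other group, as in 7.13% of all tested genes, but Muc68D varied more within both groups. In the Zn72d controls Cht8 was at 180, 257 and 253 TPM and Muc68D at 918, 1367 and 1583 TPM, and the list summed to 2755 to 3425 TPM there, to 1684 to 3072 TPM in the knockdown and to 1215 and 934.6 TPM in the libraries labelled E374A control. Cht2, Cht5 and Peritrophin-A were called higher at lower levels, with knockdown means of 9.79, 2.68 and 3.50 TPM. Cht4, a chitinase gene, was called lower, at 49.9, 65.4 and 108 TPM against 170 and 258 TPM. Its adjusted p was 0.0439, and it became 0.427 without labelled E374A control 2 and 0.125 without knockdown 2. Without labelled E374A control 1 the call was lost for Cht2 (adjusted p = 0.0831), and without labelled E374A control 2 it was lost for Cht5 (0.115) and Peritrophin-A (0.0524). Without knockdown 2 it was lost for Cht2 (0.229) and Cht5 (0.130).

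A trio of enzymes of dopamine synthesis were also among the genes near 0 in the libraries labelled E374A control; they were grouped after their values were seen. The tyrosine hydroxylase gene ple was at 8.05, 19.5 and 30.7 TPM in the knockdown libraries and at 0.165 and 0.0696 TPM in the other group (log2 fold change 4.01 ± 0.49, adjusted p = 7.65e-04). Ddc, which encodes dopa decarboxylase, was at 4.85, 7.59 and 9.24 TPM against 0.0696 and 0.276 TPM. Pu, the GTP cyclohydrolase that makes the cofactor of tyrosine hydroxylase, was at 3.03, 5.38 and 4.69 TPM against 0.127 and 0.336 TPM. Ddc and Pu had log2 fold changes of 2.78 and 2.10, and neither overlapped between groups. The Zn72d controls held ple at 18.2, 19.0 and 26.4 TPM, Ddc at 6.62 to 8.97 TPM and Pu at 3.45 to 5.28 TPM, so the libraries labelled E374A control were again the low group. The neuron list held 0 calls in 2 tested members, where 2.05% of all tested genes were called. Of its 8 genes, 6 were under 1 TPM in all 5 libraries. The list summed to 3.09 to 5.17 TPM in the knockdown and to 2.82 and 4.18 TPM in the other group. The homeobox genes ara and caup, neighbours of the Iroquois complex, were also called higher, at 5.84, 5.12 and 8.59 TPM against 0.314 and 1.04 TPM for ara. For caup the values were 4.28, 6.12 and 8.15 TPM against 0.468 and 1.39 TPM, and its adjusted p of 0.0270 became 0.0811 without labelled E374A control 1 and 0.103 without knockdown 2. In the Zn72d controls ara was at 6.28 to 8.94 TPM and caup at 7.26 to 9.99 TPM.

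**Figure D3:**
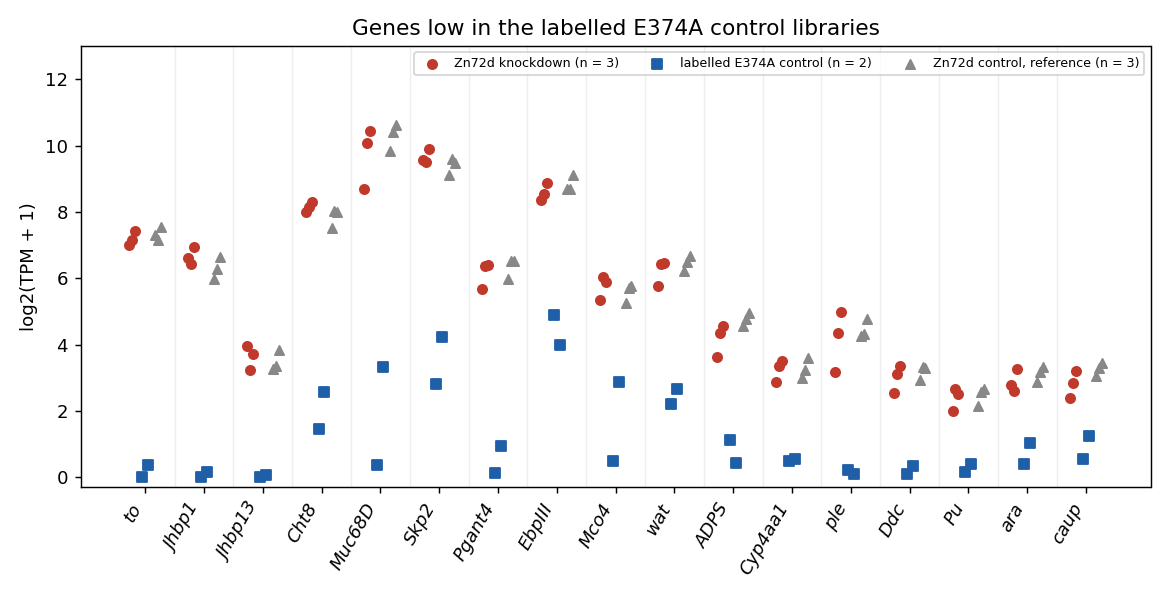
Level on the log2(TPM + 1) scale, 1 point per library, of 17 genes that were low in the libraries labelled E374A control. In each gene the 2 blue squares lie below the 3 red circles, and the grey triangles give the Zn72d controls; Muc68D did not pass the test.

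Among heat-shock genes, 3 were called higher in the knockdown libraries, which differed widely among themselves. Hsp27, a small heat-shock chaperone, was at 761, 783 and 216 TPM against 24.2 and 13.8 TPM, with a log2 fold change of 4.71 ± 0.62 and an adjusted p of 0.0171. The Zn72d controls were at 45.4, 2.66 and 10.1 TPM. Of the small heat-shock list, 7 of 9 genes were tested and 1 was called higher (1.38% of all tested genes were), with a median log2 fold change of 3.11. Its summed level was 4538, 4175 and 1051 TPM in the knockdown and 443 and 426 TPM in the other group. Knockdown 3 was thus the lowest of the knockdown libraries, yet above both others. Hsp26, in the same list, was at 1983, 1802 and 377 TPM against 38.7 and 94.1 TPM and did not pass (adjusted p = 0.215). Among the Hsp70, Hsp90 and co-chaperone list, 2 of 17 tested genes were called higher, against 1.38% of all tested genes. They were the Hsp40 gene DnaJ-1 and the co-chaperone gene stv. DnaJ-1 was at 704, 419 and 295 TPM against 66.1 and 124 TPM, and stv at 304, 500 and 244 TPM against 126 and 112 TPM. Hsp70Aa, the inducible chaperone, was at 1151, 687 and 238 TPM against 25.2 and 42 TPM with an adjusted p of 0.0679; the Hsp70 copies are nearly identical and their reads may be divided among them. The unfolded protein and amino acid stress list had 0 calls in 22 genes and a median of -0.45. Of all tested genes, 2.05% were called in either direction, with a median of -0.31. The Hsp27 call was lost without knockdown 1 (adjusted p = 0.357), without labelled E374A control 2 (0.166) and under median-ratio scaling (0.0598). In the fit with the Zn72d controls the calls of Hsp27, DnaJ-1 and stv were lost (0.105, 0.204 and 0.179). DnaJ-1 was lost without labelled E374A control 1 (0.0516), and stv without labelled E374A control 1 (0.0644), without control 2 (0.247) and without knockdown 2 (0.128).

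Lysozyme genes, whose products digest bacterial cell walls in the gut, were higher for 2 of 7 genes, LysC and LysX, against 1.38% of all tested genes. LysC was at 13200, 8935 and 10904 TPM against 2867 and 2173 TPM and at 2577 to 4051 TPM in the Zn72d controls, with a log2 fold change of 2.12 ± 0.23 and an adjusted p of 3.15e-04. LysX was at 113, 88.3 and 61.8 TPM against 24.9 and 19.5 TPM, and its adjusted p of 0.00707 became 0.0895 without labelled E374A control 2. LysB, LysD and LysE, close copies of LysC, had log2 fold changes of 0.80, 0.65 and 0.81 and did not pass. The annotation classes the LysC row as a pseudogene, and reads of near-identical copies may be assigned unevenly among them, so the LysC value is uncertain. LysP was at 18.7, 21.4 and 17.2 TPM against 28.7 and 52.3 TPM (adjusted p = 0.245), and LysS was at 17.1, 8.69 and 15.1 TPM against 2.08 and 4.44 TPM (adjusted p = 0.0510).

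**Figure D4:**
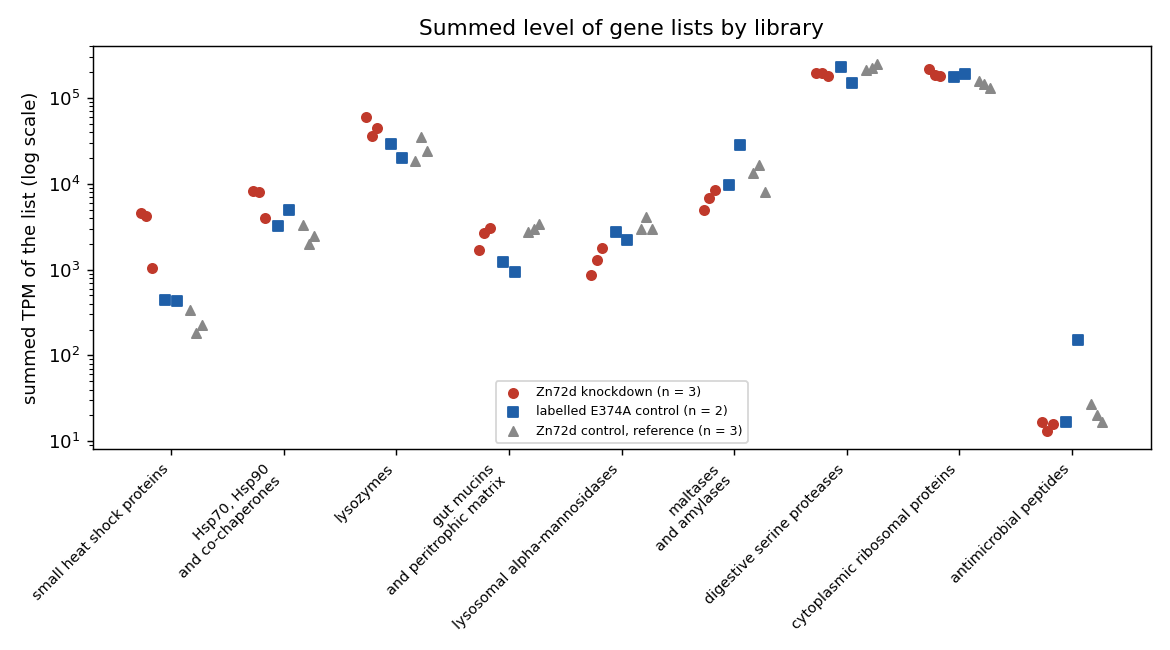
Summed TPM of 9 gene lists by library, on a log axis, for 3 Zn72d knockdown, 2 labelled E374A control and 3 Zn72d control libraries. Small heat-shock genes reach 4538 and 4175 TPM in knockdown 1 and 2 and 1051 TPM in knockdown 3, and the antimicrobial peptide sum stands out at 149.6 TPM in the library labelled E374A control 2.

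Digestive and metabolic genes showed few calls, and of all tested genes 2.05% were called in either direction. The maltase and amylase list, enzymes of sugar and starch digestion, had 0 calls in 13 genes, although 11 of the 13 were below both other values in every knockdown library (25.3% of all tested genes were) and the median log2 fold change was -1.82. Its summed level was 4937, 6817 and 8422 TPM against 9716 and 28407 TPM, with the library labelled E374A control 2 far above the rest. Mal-A1, a maltase, was at 471, 1012 and 1413 TPM against 1854 and 8731 TPM. The lysosomal alpha-mannosidase list had 0 calls in 6 genes, 4 of which did not overlap (32.4% of all tested genes did not), and a median of -1.16. LManV, one of its members, was at 173, 262 and 387 TPM against 630 and 610 TPM with an adjusted p of 0.0872. Of 29 tested digestive serine proteases, 1 was called lower, Jon66Cii, a Jonah-family protease, at 7.47, 4.80 and 7.01 TPM against 28.7 and 34.2 TPM (log2 fold change -2.14 ± 0.34). The list median was 0.10.

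Genes of the STING and double-stranded RNA list were called in both directions, with 1 higher (1.38% of all tested genes) and 2 lower (0.668% of all) of 12 tested genes, and a list median of -0.35. Srg2, a gene named as STING-regulated, was at 43.0, 60.7 and 64.0 TPM in the knockdown and at 306 and 878 TPM in the other group, with a log2 fold change of -3.21 ± 0.41 and an adjusted p of 0.00167. It was at 269, 172 and 157 TPM in the Zn72d controls, between the groups. Srg3, also STING-regulated by name, was at 41.0, 44.2 and 34.0 TPM against 119 and 171 TPM, with 26.5 to 36.2 TPM in the Zn72d controls. Both groups were separate for each gene. cGlr1, a cGAS-like receptor that senses double-stranded RNA, was at 23.5, 23.5 and 28.9 TPM against 8.43 and 2.90 TPM, with a log2 fold change of 2.11 ± 0.40. Sting itself was at 21.3, 27.1 and 29.6 TPM against 28.8 and 37.6 TPM and overlapped between groups. The Srg3 call was lost without labelled E374A control 2 (adjusted p = 0.0615), and the cGlr1 call without that library (0.132) and without knockdown 2 (0.0589). Antimicrobial peptide genes had 0 calls in 5 tested genes; the high AttC and peptide sum of the library labelled E374A control 2 lies beside the Srg2 and Srg3 values, and its part in them was not tested.

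The lower calls included genes of varied roles. Dph1, of diphthamide synthesis on a translation factor, was at 29.7, 24.6 and 23.1 TPM against 109 and 135 TPM (log2 fold change -2.20 ± 0.28, adjusted p = 0.00101), and stood at 84.3 to 92.5 TPM in the Zn72d controls. Cyp6a2, a cytochrome P450 linked to insecticide metabolism, was at 1.67, 3.29 and 2.29 TPM against 18.2 and 22.7 TPM. In the cytochrome P450 list, 1 of 63 tested genes was called lower, which was Cyp6a2, and 1 higher, Cyp4aa1, at 6.32, 9.17 and 10.5 TPM against 0.421 and 0.473 TPM. With 2.05% of all tested genes called, this list is near the background. The lactate dehydrogenase gene Ldh was at 54.4, 76.1 and 80.2 TPM against 145 and 239 TPM, and its adjusted p of 0.0371 became 0.375 without labelled E374A control 2 and 0.0820 without knockdown 2. Acbp3, an acyl-CoA binding protein, was at 139, 113 and 151 TPM against 518 and 281 TPM, below the 1156 to 1294 TPM of the Zn72d controls. The Acbp3 call, adjusted p = 0.0237, was lost without labelled E374A control 1 (0.0875) and without knockdown 2 (0.0868), and under the median-ratio scaling (0.233). The gene lcs was at 410, 223 and 198 TPM against 751 and 1129 TPM, whereas the Zn72d controls held 0.640, 0.369 and 0.617 TPM. CG16826, singled out after its values were seen, showed the same arrangement, at 493, 599 and 399 TPM against 1221 and 1472 TPM and listed at 0 in all 3 Zn72d controls. Without labelled E374A control 2 the lcs and CG16826 calls were lost (adjusted p = 0.194 and 0.101), as they were under the median-ratio scaling (0.140 and 0.175).

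A separate set of calls fell on genes that overlap others on the same strand. Of the called genes, 23.4% had a same-strand exon overlap, against 8.38% of all tested genes. In 37 called genes (21.1%, against 1.63% of tested genes), the level differed by more than 1 on the log2(TPM + 1) scale between near-duplicate libraries. In those library pairs 83.6 to 84.0% of gene coverages were equal within 0.1%, and the reads themselves were not compared. The 37 genes were therefore marked as of uncertain read assignment. These comprised 17 of the higher and 20 of the lower calls, leaving 101 and 37 calls without that mark. In 31 called genes the overlapping partner moved the opposite way by more than 1.

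The values of some such pairs follow, and what set their shares was not tested. The mitochondrial import gene Tim10 was at 120, 109 and 105 TPM against 13.1 and 10.1 TPM, while CG42497, which overlaps it, was at 0.358, 0.245 and 0.417 TPM against 106 and 98.7 TPM. The summed TPM of the pair was 105.1 to 120.0 in the knockdown and 108.8 to 118.8 in the other group, and Tim10 took 99.6 to 99.8% of it in the knockdown and 9.27 to 11.0% in the libraries labelled E374A control. Ccdc56, which encodes a mitochondrial assembly factor, and mtTFB1, named for a mitochondrial transcription factor, share 3L:11708979-11710570. Ccdc56 took 92.6 to 96.7% of their sum against 0.597 to 1.42%. Here the sums differed, at 43.5 to 49.6 TPM in the knockdown and 63.6 to 78.6 TPM in the other group. The sum of CG31917 and Tfb5 was 31.2 to 38 TPM against 46.3 to 77.8 TPM, and the groups did not overlap in either sum. For the general transcription factor subunit gene Tfb5 and its partner CG31917, the Zn72d controls fell on both sides: CG31917 took between 0 and 97.9% of the pair's TPM. Gint3 and CG42306 spanned 0.775 to 98.6% in the same 3 libraries. In the other direction, the Zn72d controls lay on the knockdown side for Tim10 (99.5 to 99.8% of its pair's TPM) and Ccdc56 (88.9 to 92.5%). They did so too for PIG-P, which overlaps Tcs6 (89.3 to 92.1%). Rpp14a, a ribonuclease P subunit gene, was at 0.545, 0.121 and 0.199 TPM against 37.3 and 38.3 TPM and belongs to the same kind of overlap. Calls for Gint3, CG42306, Tfb5 and CG31917 did not hold in the fit that included the Zn72d controls (adjusted p = 0.228, 0.193, 0.151 and 0.204).

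**Figure D5:**
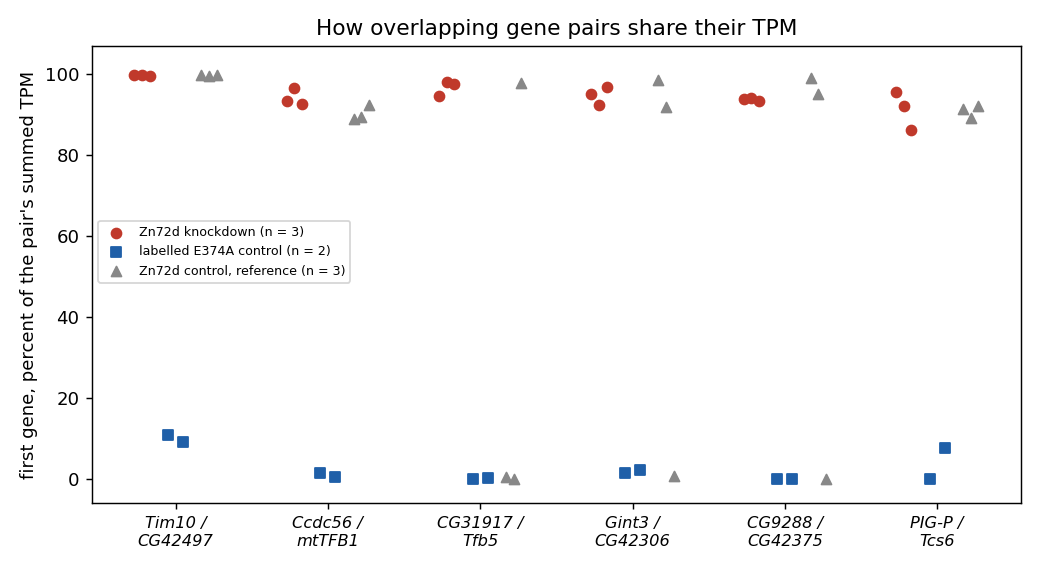
Share of a pair's summed TPM taken by the first gene, 1 point per library, for 6 overlapping gene pairs. The red knockdown points lie above 86% and the blue labelled E374A control points below 12% in all 6 pairs, and the grey Zn72d controls split between both sides in 3 of them.

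Most of the other gene lists had no call. Of all tested genes 2.05% were called, a share at which a short list may hold 0 calls, and their median was -0.31. The cytoplasmic ribosomal protein list had 0 calls in 83 tested genes (median log2 fold change 0.13), the mitochondrial ribosomal list 0 of 75 (-0.10), and the nuclear oxidative phosphorylation list 0 of 71 (0.24). The proteasome list had 0 of 32 (-0.24), the vacuolar ATPase list 0 of 20 (0.22) and the glutathione S-transferase list 0 of 30 (-0.06). The cell cycle and replication list had 0 of 19 (-0.42), and the JAK-STAT list 0 of 10 (-0.74). Above the median of all tested genes were 81 of 83 cytoplasmic ribosomal, 70 of 75 mitochondrial ribosomal and 69 of 71 oxidative phosphorylation genes. The counts were 26 of 32 for the proteasome, 17 of 20 for the vacuolar ATPase and 21 of 30 for glutathione S-transferases. They were 4 of 19 for the cell cycle and 2 of 10 for JAK-STAT. A list without calls may thus still be shifted. Among cell type lists, stem cell and enteroblast markers had 0 of 11 and summed to 71.1 to 85.7 TPM in the knockdown and to 56.1 and 94.9 TPM in the other group. Enterocyte markers had 0 of 11, enteroendocrine markers 0 of 11, visceral and body muscle markers 0 of 12 and Malpighian tubule markers 0 of 5. The photoreceptor and head list had 1 of 2 tested genes called higher, which was to, with a median of 3.26; norpA, the other, had overlapping groups. The fat body and oenocyte list had 0 of 6 and summed to 578 to 728 TPM in the knockdown, and to 346 and 1212 TPM in the other group. In these bulk libraries fewer cells of a type and less RNA per cell cannot be told apart.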

How the data were processed

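Per the labels' protocols, RNA was sequenced as paired-end reads on a NovaSeq instrument. STAR 2.7.1a served as aligner and StringTie as quantifier, per the submitters' processing notes, with dm6 as the genome. No source used here gives the strand settings or annotation release. The authors deposited TPM, FPKM and coverage (signal) per gene; the library labelled E374A control 3 came as assembled loci, whose deposited TPM column is a signal. Coverage served to compare libraries and, with FPKM, to estimate aligned bases. Rows with FlyBase identifiers (17830, of which 17751 matched a symbol) were used. limma 3.58.1 (R 4.3.3, eBayes with trend and robust variances, statmod 1.5.0) was run on log2(TPM + 1) for genes with a mean of at least 1 TPM, two-sided, with Benjamini-Hochberg adjustment over all tested genes and a call at an adjusted p under 0.05. Fold changes understate changes of low genes, and errors are standard errors. The test was run on simulated data with independent noise, whose spreads came from the knockdown libraries and were shuffled among genes. The simulation held no outlying library and no shift of all genes, so it does not bear on these features of the data. Genes were named by a fixed rule. It took the 15 largest called changes in each direction among genes with a descriptive symbol and at least 10 TPM in the higher group. A descriptive symbol excludes a bare CG or CR number and antisense or long non-coding RNA. The groups of these genes also had to be free of overlap. The rule added up to 4 called members of each of 48 lists with at least 5 TPM. Some called genes outside these limits are named too. The members and lists were chosen with earlier results of these data known. The 12 sorted midgut libraries were not used here.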

Additional observations from a re-analysis of the deposited data

How the results depend on the processing

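The count of higher calls was 118 and moved to 71 with a minimum of 5 TPM, 221 with median-ratio scaling, 182 with quantile normalization and 326 with the replicate block. The count of lower calls was 57 and moved to 29 without a filter, 33 with a minimum of 5 TPM, 88 with the Zn72d controls in the fit, 947 with the replicate block and 36 without the genes of uncertain read assignment, an alternative chosen after seeing the data that gave 100 higher calls. Leaving out 1 library gave 87 to 208 higher and 29 to 294 lower calls, and a Zn72D log2 fold change of -1.12 to -0.50. With the replicate block the Zn72D log2 fold change was -0.88 with an adjusted p of 0.0234; knockdown 3 has no partner and does not bear on that fit. The numbers were not taken to pair the samples: the deviations of same-numbered libraries correlated at 0.198 and 0.118, over genes, and only numbers 1 and 2 are shared. In the other fits the Zn72D log2 fold change stayed below 0 and did not pass. Among the 46 called genes named, excluding Adar, 24 kept their direction and call in every fit run, and no fit reversed one. The call was lost in 45 of 491 values under other settings and in 28 of 230 with a library left out. Of genes that did not pass, esg (-0.11) changed sign with median-ratio scaling (0.21), quantile normalization (0.21) and across the left-out libraries (-0.59 to 0.37). The Yp3 log2 fold change (-0.40) ranged from -2.86 to 2.06, the latter without labelled E374A control 2, where its adjusted p was 0.0126. Where a call was lost, the cause was not tested. Fold changes of genes near 0 TPM depend on the pseudocount, and without read counts no counting error is given.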
